A study of Mus musculus with 4 samples.

Results

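The 10 genes described here encode the core of mechanistic target of rapamycin complex 1 (mTORC1), its upstream TSC-RHEB switch and a pair of its direct substrates. They were chosen by name (Mtor, Rptor, Mlst8, Akt1s1, Deptor, Tsc1, Tsc2, Rheb, Eif4ebp1 and Rps6kb1) from the 54752 genes in the deposited tables, and all 10 were found in each library. Total RNA was sequenced from newborn (postnatal day 0) C57BL/6 epidermis. It came from 2 Skiv2l fl/fl K14-Cre pups, called knockout here, and from 2 pups labelled Skiv2l ctl, called control. In the knockout pups, Cre under the keratin 14 promoter deletes both floxed copies of Skiv2l in basal keratinocytes and the cells that derive from them. SKIV2L is an RNA helicase that feeds transcripts to the exosome for decay in the cytoplasm. The control pups kept at least 1 working Skiv2l allele. Which of the control genotypes (Skiv2l fl/fl, Skiv2l fl/+ or Skiv2l fl/+ K14-Cre) each one carried was not given, so an effect of Cre alone cannot be told apart from that of Skiv2l loss. The labels name no treatment.

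mTORC1 is a protein kinase complex at the lysosome that couples growth factors, energy and amino acids to protein synthesis. MTOR is its kinase, RPTOR (Raptor) recruits its substrates, MLST8 binds the kinase domain, and AKT1S1 (PRAS40) and DEPTOR are inhibitory partners. TSC1 and TSC2 form a complex that holds the small GTPase RHEB inactive, and active RHEB switches the kinase on. The kinase then phosphorylates S6 kinase 1, encoded by Rps6kb1, and the translational repressor 4E-BP1, encoded by Eif4ebp1, which in its unphosphorylated form binds the cap-binding protein eIF4E. Much of this control is exerted through phosphorylation, which transcript levels do not report.

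Of the 10 genes, only Eif4ebp1 passed the test between the genotypes. Its level was 3.62 times as high in knockout as in control epidermis (limma, adjusted p = 0.000309, 2 pups per genotype). The ratio of means for the other 9 genes lay between 0.867 for Tsc2 and 1.16 for Deptor, and 0 of these 9 passed the test, at an adjusted or an unadjusted p of 0.05. Levels are FPKM, fragments scaled by the authors for transcript length and library size. Differences are log2 fold changes of FPKM + 1, tested with limma over 13609 protein-coding genes. A gene was called higher or lower at a Benjamini-Hochberg adjusted p under 0.05.

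Against this stood a broad difference over all genes. Of the 13609 tested genes, 34.4% were called, 8.99% as higher and 25.4% as lower in knockout pups, and the median log2 fold change was -0.20. Among the 10 mTORC1 genes 1 was called, and their median log2 fold change was -0.12. All 10 log2 fold changes lay above the median of all tested genes. With no filter on low values that median was -0.04 and 4 of the 10 lay above it, and 7 to 10 did so under the other alternatives. Both knockout pups were above both controls for 2 of the 10 genes, below both for 6, and the genotypes overlapped for 2. Over all tested genes these shares were 18.2%, 55.3% and 26.5%.

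The most frequent ratio of coverage to FPKM, found for 4841 to 5855 genes per library, was 5.843 to 6.274, which under the usual definition of these units would be the aligned gigabases, a depth that no source used here states. Replicate libraries correlated across genes at r = 0.989 in each genotype. Genes of any kind over 0.5 FPKM numbered 17761 and 17638 in the control libraries and 17384 and 16138 in the knockout libraries, fewest in the second knockout library. Skiv2l itself (ENSMUSG00000040356.16, chr17:34839228-34850210, minus strand) stood at 19.3 and 19.1 FPKM in the control pups and at 10.8 and 8.55 FPKM in the knockout pups, a log2 fold change of -0.92 (SE 0.12, limma adjusted p = 0.00368). Without 1 control library the value was -0.92 or -0.93 and it no longer passed (adjusted p = 0.0562 and 0.0547, with alternatives from 0.00108 to 0.0706). The labelled tissue carried its markers. The 5 basal keratinocyte markers summed to 4178 to 4363 FPKM in control pups and 9547 to 9621 FPKM in knockout pups (2 of 5 called higher), a difference carried by Krt14, which stood at 1736, 1812, 7381 and 7312 FPKM. Itgb4 was the other marker called higher, whereas Krt5 (2003, 2075, 1761 and 1759 FPKM) and Itga6 (114, 118, 108 and 98.2 FPKM) were below the controls in both knockout pups without passing the test, and Col17a1 overlapped. The 5 suprabasal markers summed to 27007 to 28001 and 18635 to 21617 FPKM (2 of 5 called lower). Cycling cell markers summed to 74.5 to 79.6 FPKM in control pups and 52.1 to 53.7 FPKM in knockout pups (3 of 4 lower). By Ki67 staining and flow cytometry, the paper reported more proliferating basal keratinocytes in newborn epidermis of this knockout genotype. FPKM of the whole epidermis does not count cells, and the difference between these measures was not tested. Several markers of other cells were called lower as well. Fibroblast markers summed to 61.3 to 69.0 against 21.9 to 25.0 FPKM (2 of 5 tested lower). That difference was carried by Dcn, at 57.0, 62.7, 16.9 and 21.4 FPKM. Col1a2 was also below the controls in both knockout pups, whereas Col1a1 and Col3a1 overlapped. Lum, at most 0.138 FPKM, was too low to be tested. Pdgfra went the other way, at 0.299, 0.250, 0.789 and 0.668 FPKM. Leukocyte markers summed to 27.8 to 33.5 against 13.6 to 14.9 FPKM (3 of 5 tested lower, with Cd207 at most 0.0417 FPKM). Erythroid markers summed to 125 to 134 against 62.0 to 80.7 FPKM (4 of 5 lower). Melanocyte markers summed to 45.3 to 51.8 and 48.1 to 60.9 FPKM (1 of 4 higher), while endothelial, skeletal muscle and adipocyte sums stayed at or below 0.827 FPKM in every library, with Emcn at 0 throughout. The part of these differences in the results below was not tested. In bulk epidermis, fewer cells of a type and less RNA per cell cannot be told apart.

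**Figure D1:**
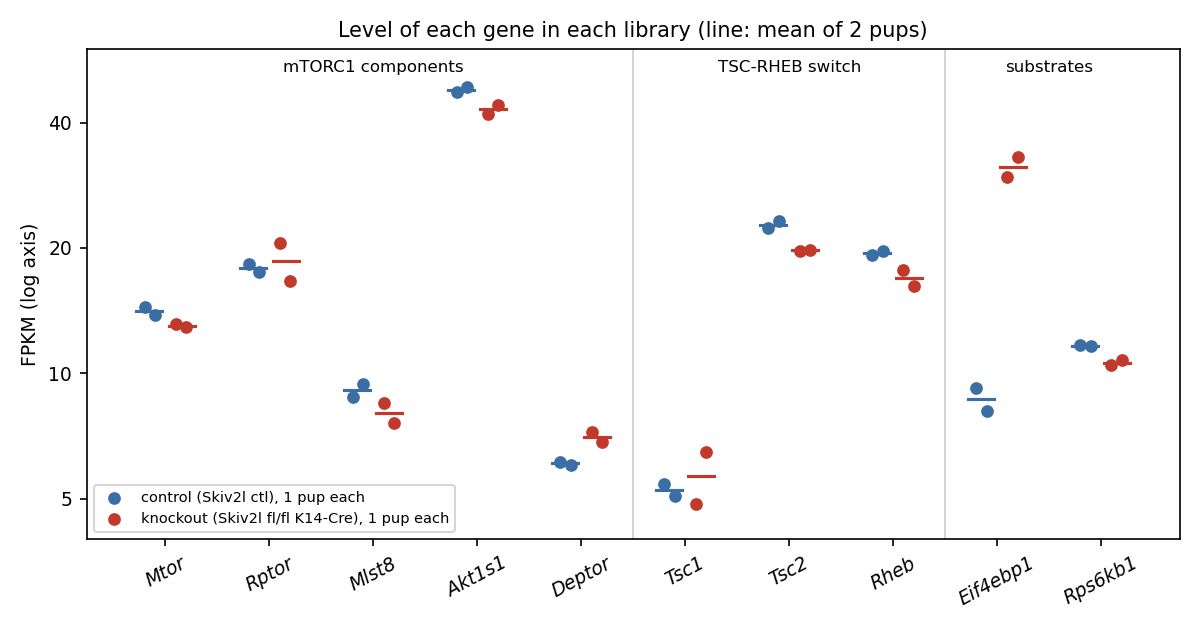
Level of each of the 10 genes in FPKM (log axis), grouped by role, with 1 point per pup and a line at the mean of the 2 pups of a genotype. Eif4ebp1 moved from 8.10 and 9.23 FPKM in control pups to 29.6 and 33.0 FPKM in knockout pups, whereas the means of the other 9 genes lay within 0.867 to 1.16 times their control level.

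In control epidermis the 10 genes spanned about 1 order of magnitude on the FPKM scale. Akt1s1 was highest (48.0 ± 0.956 FPKM, SD, n = 2), followed by Tsc2, Rheb, Rptor, Mtor, Rps6kb1, Mlst8, Eif4ebp1, Deptor and Tsc1 (5.24 ± 0.253 FPKM). Only Mlst8 and Eif4ebp1 among neighbours in that order had overlapping values. In knockout epidermis Eif4ebp1 went from the eighth place to the second, between Akt1s1 and Tsc2, and the other 9 genes kept their order except that Rptor came before Rheb. Rptor was not separated there from Tsc2 or Rheb, as the 2 knockout values of Rptor enclosed those of Tsc2 and overlapped those of Rheb. The knockout values of Tsc2 and Rheb did not overlap each other.

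Eif4ebp1 (ENSMUSG00000031490.6, chr8:27260329-27276674 of GRCm38, plus strand) encodes 4E-BP1. It stood at 9.23 and 8.10 FPKM in the control pups and at 29.6 and 33.0 FPKM in the knockout pups. The genotypes did not overlap, and the lower knockout pup was far above the higher control. The group means were 8.67 ± 0.794 and 31.3 ± 2.40 FPKM (SD, n = 2), and the log2 fold change was 1.74 (SE 0.11, 95% interval 1.48 to 2.003, limma adjusted p = 0.000309), which placed the gene 160th of 13609 by fold change and 124th by p. It was called under each of 13 alternative settings, with log2 fold changes of 1.38 to 1.94 and adjusted p of 4.81e-05 to 0.0343. The smallest of these changes came from coverage, which is low for this gene, so that the added 1 weighs more. Coverage divided by the ratio given above for each library was 1.68 and 1.46 in control pups and 5.37 and 5.99 in knockout pups, a ratio of 3.62. That divisor was itself taken from coverage and FPKM, so the like ratio is not a separate check of the FPKM result. Of the basal keratinocyte markers, Krt14 and Itgb4 were higher as well and Krt5, Itga6 and Col17a1 were not, and their part in the result was not tested. None of the gene's exonic bases overlap another annotated gene, and 0.613% of the 75-base stretches of its transcripts occur in another gene.

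4E-BP1 has a pair of paralogs, 4E-BP2 and 4E-BP3, encoded by Eif4ebp2 and Eif4ebp3, which bind eIF4E through the same motif. The later part of the spliced coding sequences of Eif4ebp1 (codon 38 to the stop codon) and Eif4ebp2 (codon 39 to the stop codon) is shown because the finding turns on telling these transcripts apart. They were read from the GENCODE M21 annotation on GRCm38, where the coding exons lie within chr8:27260409-27275111 (plus strand) and chr10:61433797-61452546 (minus strand). Capitals mark the codons of the eIF4E-binding motif (codons 53 to 59 in Eif4ebp1 and 54 to 60 in Eif4ebp2) and of the TOR signalling motif at the end of the protein, through which Raptor holds the substrate (codons 113 to 117 and 116 to 120).
Eif4ebp1: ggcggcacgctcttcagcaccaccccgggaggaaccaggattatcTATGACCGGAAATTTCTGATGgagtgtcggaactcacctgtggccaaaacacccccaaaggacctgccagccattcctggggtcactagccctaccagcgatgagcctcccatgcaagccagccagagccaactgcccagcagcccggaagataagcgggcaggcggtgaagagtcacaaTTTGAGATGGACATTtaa
Eif4ebp2: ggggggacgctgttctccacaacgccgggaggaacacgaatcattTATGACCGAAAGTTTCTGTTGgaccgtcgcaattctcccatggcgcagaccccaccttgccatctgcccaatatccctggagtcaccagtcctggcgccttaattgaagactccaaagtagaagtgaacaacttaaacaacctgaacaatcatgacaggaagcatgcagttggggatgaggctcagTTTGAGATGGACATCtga
Over the 368 aligned columns of the whole coding sequences, 241 bases were identical (65.5%), and the longest identical run was 14 bases, and the stretches of 75 bases shared with other genes included none between Eif4ebp1 and Eif4ebp2. Both motifs were found in both sequences.

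Eif4ebp1 was the 4E-BP transcript that passed the test. Eif4ebp2, the most abundant of the family, stood at 62.6 and 68.4 FPKM in control pups and 65.3 and 65.1 FPKM in knockout pups, both knockout values between those of the controls (log2 fold change -0.0048, 95% interval -0.21 to 0.20, limma adjusted p = 0.969, with alternatives that included values of either sign). Eif4ebp3 was low, at 2.97, 1.74, 2.22 and 1.61 FPKM, and overlapped between the genotypes. Of the stretches of Eif4ebp3 transcripts, 64.2% occur in an overlapping gene, so its level is uncertain. Summed over the family, 4E-BP transcripts came to 74.8 and 78.2 FPKM in control pups and 97.2 and 99.8 FPKM in knockout pups. The share of Eif4ebp1 in that sum was 12.3% and 10.4% in control pups and 30.5% and 33.1% in knockout pups, and that of Eif4ebp2 went from 83.7% and 87.4% to 67.2% and 65.3%.

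**Figure D2:**
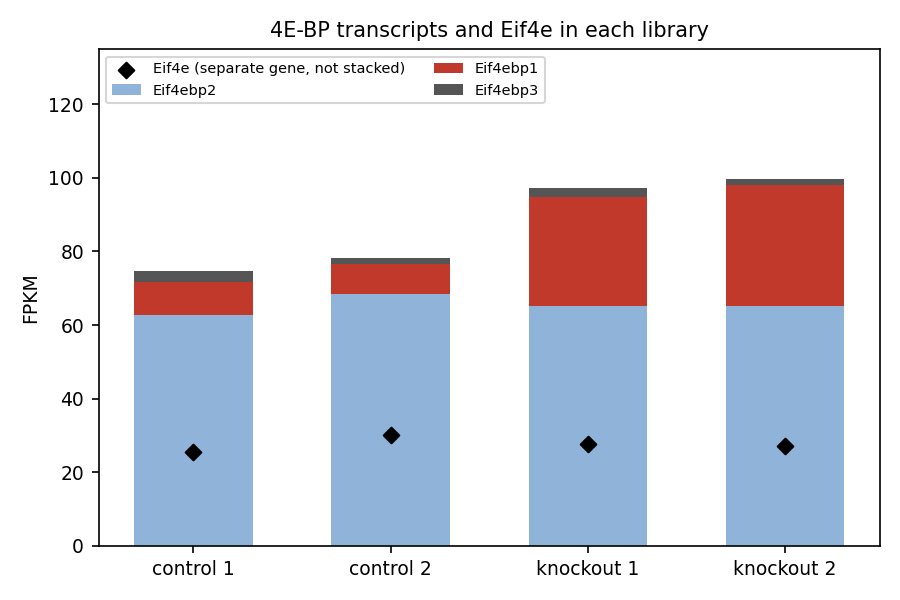
FPKM of Eif4ebp2, Eif4ebp1 and Eif4ebp3 stacked for each library, with Eif4e of the same library as a diamond. The Eif4ebp2 part is of like height in all 4 libraries, and the Eif4ebp1 part grows from 8.10 to 9.23 FPKM in control pups to 29.6 to 33.0 FPKM in knockout pups.

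Eif4e, which encodes the protein that the 4E-BPs bind, stood at 25.6 and 30.0 FPKM in control pups and 27.8 and 27.0 FPKM in knockout pups (limma adjusted p = 0.914). The ratio of summed 4E-BP transcripts to Eif4e was 2.92 and 2.61 in control pups and 3.50 and 3.69 in knockout pups. The genotypes did not overlap, and the log2 ratio was 0.38 higher in knockout pups. With 2 pups against 2 the exact permutation test, two-sided, cannot go below 0.333, which is the value it gave (0.667 adjusted over the 6 ratios computed here).

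The other substrate, Rps6kb1 (ENSMUSG00000020516.15, chr11:86498871-86544805, minus strand), stood at 11.7 and 11.6 FPKM in control pups and 10.5 and 10.8 FPKM in knockout pups. Both knockout pups were slightly below both controls, and the log2 fold change was -0.12 (95% interval -0.35 to 0.10, limma adjusted p = 0.315). Its paralog Rps6kb2, encoding S6 kinase 2, stood at 43.5, 45.0, 54.0 and 45.8 FPKM (log2 fold change 0.17, adjusted p = 0.245), and passed under median scaling (0.37) but no other alternative. The ratio of Rps6kb1 to Rps6kb2 was 0.268 and 0.259 in control pups and 0.194 and 0.235 in knockout pups, lower in both, with an exact permutation p of 0.333, the smallest possible. Of the Rps6kb2 stretches, 17.5% occur in the overlapping gene Ptprcap.

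Among the subunits of the complex, none passed the test. Mtor (ENSMUSG00000028991.15, chr4:148448611-148557683, plus strand), the kinase, stood at 14.5 and 13.8 FPKM in control pups and 13.2 and 12.9 FPKM in knockout pups. Its log2 fold change of -0.11 had a 95% interval that corresponds to 0.796 to 1.08 times the control value of FPKM + 1. Mlst8 (ENSMUSG00000024142.15, chr17:24473551-24479078, minus strand) stood at 8.79, 9.45, 8.47 and 7.60 FPKM, in the same order of libraries. For both genes the knockout pups were below the controls and did not pass (adjusted p = 0.363 and 0.260). The value for Mlst8 is less certain, since 22.5% of its exonic bases lie opposite exons of Bricd5 and the sources used here do not say whether strand was used in the quantification.

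Rptor (ENSMUSG00000025583.15, chr11:119602905-119899576, plus strand) stood at 18.3 and 17.5 FPKM in control pups and at 20.5 and 16.7 FPKM in knockout pups. The knockout pups lay on either side of both controls. The log2 fold change was 0.05 with all 4 libraries (adjusted p = 0.781) and -0.10 without the first knockout library. Rictor, which takes the place of Rptor in mTORC2, showed the opposite order of the knockout pups, at 11.2, 11.4, 9.69 and 13.6 FPKM. The Rptor to Rictor ratio was therefore 1.63 and 1.53 in control pups and 2.12 and 1.22 in knockout pups, and the log2 difference of 0.03 became -0.37 without the first knockout library.

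On FPKM as deposited, the inhibitory subunits lay on different sides of the controls. Akt1s1 (ENSMUSG00000011096.17, chr7:44848991-44855421, plus strand) stood at 47.3 and 48.6 FPKM in control pups and 41.9 and 44.2 FPKM in knockout pups. Both knockout values were below the controls, with a log2 fold change of -0.15 (95% interval -0.35 to 0.04, limma adjusted p = 0.182). Deptor (ENSMUSG00000022419.16, chr15:55112317-55259271, plus strand) stood at 6.14 and 6.03 FPKM in control pups and 7.23 and 6.84 FPKM in knockout pups, both above the controls.

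The log2 fold change of Deptor was 0.18 (SE 0.10, 95% interval -0.07 to 0.43, limma adjusted p = 0.204). This was the gene whose call depended on the scaling: once the libraries were brought to a common median or a common distribution, the log2 fold change was 0.37 under either and passed (adjusted p = 0.0433 and 0.0400, with a range of 0.0400 to 0.476 over 13 alternatives). Under these scalings 2 of the 10 genes were called, Eif4ebp1 and Deptor, against 25.8% and 26.5% of all tested genes. Those scalings moved the median log2 fold change of all tested genes from -0.20 to -0.03 and -0.05. A ratio within a library does not change when all values of the library are multiplied by 1 factor, as in median scaling, and the ratios were not computed after quantile normalization. The Deptor to Mtor ratio was 0.425 and 0.437 in control pups and 0.550 and 0.531 in knockout pups, a log2 difference of 0.33 with no overlap, at the smallest exact permutation p the design allows (0.333, 0.667 adjusted over 6 ratios). The Akt1s1 to Mtor ratio was 3.27 and 3.52 against 3.19 and 3.43 and overlapped.

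**Figure D3:**
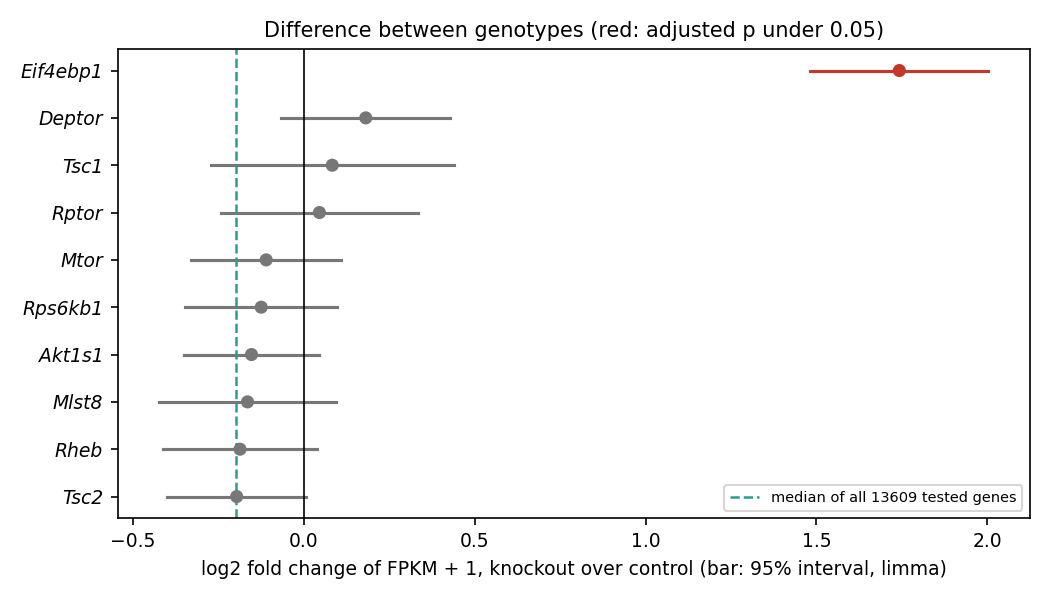
Log2 fold change of FPKM + 1, knockout over control, with the 95% interval from limma for each gene, and a dashed line at the median of all 13609 tested genes. Only the interval of Eif4ebp1, from 1.48 to 2.003, excludes 0.

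In the TSC-RHEB switch, Tsc2 (ENSMUSG00000002496.10, chr17:24595816-24632630, minus strand), the subunit that acts on RHEB, stood at 22.4 and 23.2 FPKM in control pups and 19.7 and 19.8 FPKM in knockout pups. Rheb (ENSMUSG00000028945.9, chr5:24802823-24842624, minus strand) stood at 19.2 and 19.6 FPKM in control pups and 17.7 and 16.2 FPKM in knockout pups. Both genes were lower in both knockout pups, and their log2 fold changes of -0.20 and -0.19 were close to the median of all tested genes and did not pass (limma adjusted p = 0.115 and 0.159). Tsc1 (ENSMUSG00000026812.16, chr2:28641228-28691167, plus strand), which stabilizes Tsc2 protein, stood at 5.42 and 5.06 FPKM in control pups and at 4.85 and 6.47 FPKM in knockout pups. Here the knockout pups again lay on either side of the controls, with a log2 fold change of 0.08 (adjusted p = 0.675) that became -0.09 without the second knockout library. The ratio of Rheb to Tsc1 plus Tsc2 was 0.691 and 0.695 in control pups and 0.723 and 0.616 in knockout pups, and overlapped.

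The 6 genes whose knockout values were below the controls (Mtor, Mlst8, Akt1s1, Tsc2, Rheb and Rps6kb1) had log2 fold changes of -0.20 to -0.11 on FPKM as deposited and of 0.01 to 0.09 after the libraries were brought to a common median, so that no direction is given for them. Eif4ebp1, Deptor and Tsc1 stayed positive under FPKM, TPM, median scaling, quantile normalization and coverage. No direction is given for Tsc1 either, as its knockout pups lay on either side of the controls. Its value was -0.09 without the second knockout library.

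**Figure D4:**
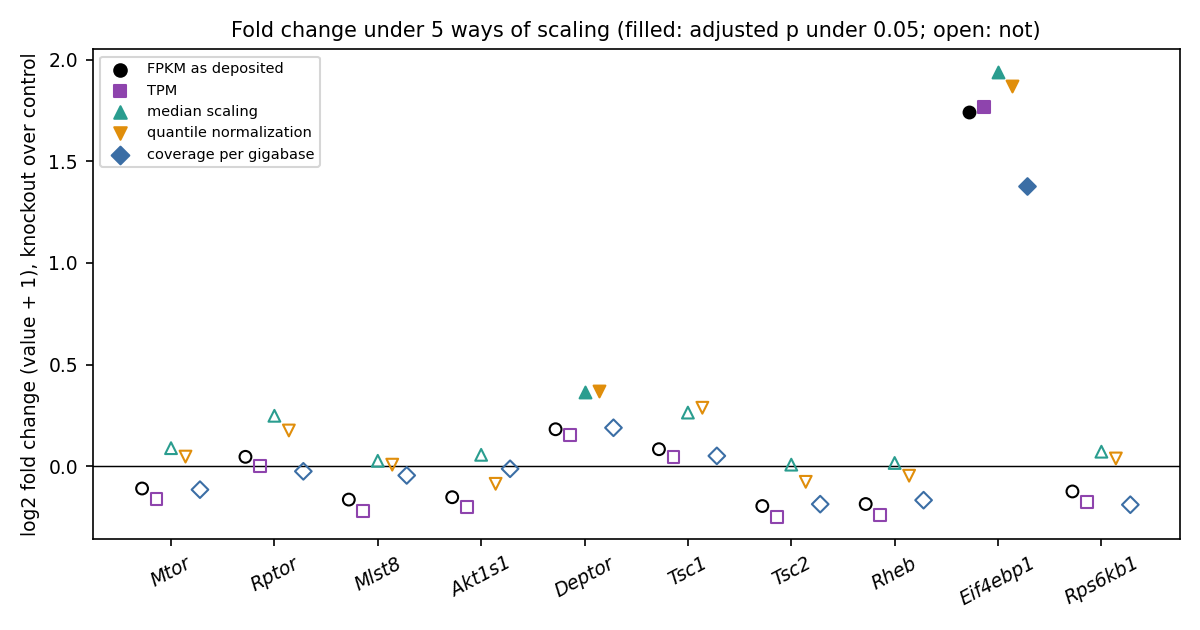
Log2 fold change of each gene (value + 1, knockout over control) under 5 ways of scaling, with filled symbols where the adjusted p was under 0.05. Eif4ebp1 is filled under all 5 and Deptor under median scaling and quantile normalization, while the 6 genes below 0 on FPKM lie above it under median scaling.

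The genes whose values over the 4 libraries were most like those of Eif4ebp1, by Euclidean distance of centred log2(FPKM + 1), were Aldh1l2, which encodes a mitochondrial folate enzyme, at 1.66, 1.43, 7.004 and 8.04 FPKM (distance 0.0327, log2 fold change 1.74), and Pmepa1, which encodes a membrane inhibitor of TGF-beta signalling, at 4.29, 4.08, 15.4 and 17.1 FPKM (distance 0.0777, log2 fold change 1.73). For Tsc2 they were Drg2 (0.0057) and Srp54c (0.00973). With 4 libraries such likeness says little more than that the groups differ by a like amount.

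Beyond the 10 genes, 80 further genes of the pathway were examined by role, of which 78 passed the filter and Rragb and Ddit4l did not. Of the 78, 5 were called higher and 16 called lower in knockout pups, together 26.9%, against 34.4% of all tested genes, and their median log2 fold change was -0.14.

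Upstream of the complex, genes of the insulin and IGF1 receptor arm changed in both directions. Igf1r, encoding the IGF1 receptor, stood at 18.0 and 17.9 FPKM in control pups and 34.7 and 55.3 FPKM in knockout pups (log2 fold change 1.24, limma adjusted p = 0.00706). Irs1, encoding a docking protein for that receptor, fell from 36.3 and 33.6 FPKM to 12.2 and 15.6 FPKM (-1.28, adjusted p = 0.00138), whereas its paralog Irs2 rose from 12.0 and 13.6 FPKM to 19.5 and 27.1 FPKM (0.80, adjusted p = 0.0143). That these 3 genes did not overlap between the genotypes was a condition of naming them. Over all tested genes 26.5% overlapped. Of the Irs1 stretches, 30.3% occur in Gm9747 on the opposite strand.

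In all, 2 of 24 tested growth factor and energy genes rose and 7 fell, 37.5% against the 34.4% called over all tested genes, and the list median was -0.17. Under median scaling as under quantile normalization 2 of them were called lower, against 11.9% and 14.1% of all tested genes. The lower genes included Tbc1d7, the third subunit of the TSC complex (8.43, 7.69, 5.81 and 5.24 FPKM, log2 fold change -0.47, adjusted p = 0.0218). Ddit4, which encodes the stress-induced mTORC1 inhibitor REDD1, was at 25.0, 29.8 and 27.6 FPKM in both controls and the first knockout pup but at 79.8 FPKM in the second, and did not pass (adjusted p = 0.214).

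On the amino acid arm, Rragd, encoding a Rag GTPase that brings mTORC1 to the lysosome, fell from 5.33 and 4.63 FPKM to 1.45 and 1.04 FPKM (log2 fold change -1.42, limma adjusted p = 0.00157). The Ragulator subunits Lamtor4 (-0.50) and Lamtor2 (-0.47) were also lower. These were the 3 genes called of 12 tested for Rag GTPases, Ragulator and folliculin, 25% lower against 25.4% over all tested genes, 0 were called higher (2 at an unadjusted p under 0.05), and the list median was 0.04. The balance turned with the scaling, to 3 higher and 1 lower under median scaling and 2 higher and 1 lower under quantile normalization. So did that of all tested genes, from 8.99% higher and 25.4% lower to 13.9% and 11.9% under median scaling. Under quantile normalization 12.4% of all tested genes were higher and 14.1% lower.

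Among 17 genes of GATOR, KICSTOR and the amino acid sensors, 2 rose and 2 fell, 23.5% against 34.4% of all tested genes, and the list median was -0.22. Castor2, encoding an arginine sensor homolog, rose from 2.39 and 1.67 FPKM to 4.84 and 5.22 FPKM (1.0, adjusted p = 0.00531). Sesn2, encoding a leucine sensor induced by stress, rose from 11.6 and 11.3 FPKM to 15.4 and 19.5 FPKM (0.56, adjusted p = 0.0205), whereas its paralog Sesn3 fell from 6.91 and 6.99 FPKM to 4.04 and 3.95 FPKM (-0.67, adjusted p = 0.00575). These 2 Sestrin genes thus changed in opposite directions. Nprl3, a GATOR1 subunit, was the other lower gene, at 15.6, 14.4, 11.3 and 6.81 FPKM (-0.70, adjusted p = 0.0470), and 14.7% of its stretches occur in other genes, foremost the overlapping Mpg.

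**Figure D5:**
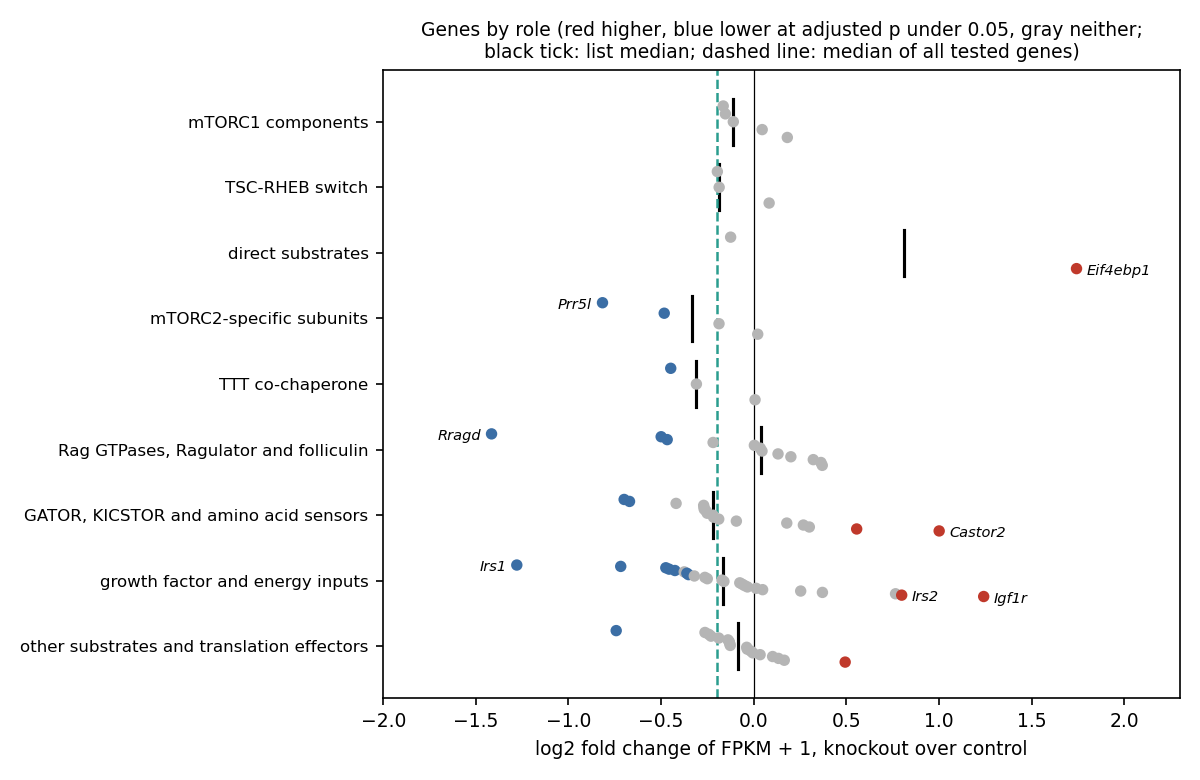
Log2 fold change (FPKM + 1, knockout over control) of each tested gene by role, red if higher, blue if lower and gray if neither at an adjusted p under 0.05, with a black tick at the list median and a dashed line at the median of all tested genes. Eif4ebp1, Igf1r and Castor2 lie at 1.0 or above, Rragd and Irs1 at -1.42 and -1.28, and the list medians lie between -0.34 and 0.04 except for the list of 2 direct substrates.

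Of 4 mTORC2-specific genes, 2 were lower, against 25.4% of all tested genes, and 0 higher (0 at an unadjusted p under 0.05). The count of lower genes was 1 under median scaling, against 11.9% of all tested genes. On coverage it was 0, against 3432 of all 13609 tested genes. Mapkap1, encoding the subunit SIN1, fell from 23.5 and 22.7 FPKM to 16.5 and 16.0 FPKM (log2 fold change -0.48, limma adjusted p = 0.00921). Prr5l was low, at 0.959 and 0.853 FPKM in control pups and 0.0753 and 0.0889 FPKM in knockout pups (-0.82, limma adjusted p = 0.00904). It did not pass on coverage (-0.07), but at values this low the added 1 holds the log2 fold change near 0. With a pseudocount of 0.1 on FPKM the log2 fold change was -2.46. In the TTT co-chaperone, which assembles kinases of the MTOR family, 1 of 3 genes was lower, Telo2 (-0.45), against 25.4% of all tested genes. Tti1 was below the controls in both knockout pups without passing (-0.31, limma adjusted p = 0.0655), and Tti2 overlapped.

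Downstream, 1 of 18 further substrates and translation effectors was higher and 1 lower, 11.1% against 34.4% of all tested genes, with a median of -0.08. The counts were 3 and 1 under median scaling, against 13.9% and 11.9% of all tested genes. Under quantile normalization they were 1 and 4, against 12.4% and 14.1%. Eef2k, encoding the elongation factor 2 kinase that S6 kinase inhibits, fell from 60.8 and 65.4 FPKM to 38.0 and 36.6 FPKM (-0.74, limma adjusted p = 0.00207). Grb10, encoding an adaptor that restrains the insulin and IGF1 receptors, rose from 5.38 and 4.09 FPKM to 7.45 and 6.63 FPKM (0.49, adjusted p = 0.0431). Rps6, the S6 kinase substrate, stood at 621, 708, 604 and 611 FPKM and did not pass (limma adjusted p = 0.344). Of the Rps6 stretches, 42.2% occur in other genes, foremost Rps6-ps4, so its level is uncertain.

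Of the pathway genes named, Eef2k, Rragd, Irs1 and Prr5l passed the test whichever of the 4 libraries was left out. Castor2 did not pass without the second control library (0.83), and Igf1r (1.24 and 1.24), Irs2 (0.71 and 0.89), Sesn2 (0.57 and 0.54), Sesn3 (-0.68 and -0.66), Mapkap1 (-0.46 and -0.51) and Lamtor2 (-0.48 and -0.45) did not pass without either the first or the second control library, although their direction held. Lamtor4 (-0.62 to -0.38), Nprl3 (-1.03 to -0.37) and Tbc1d7 (-0.54 to -0.41) passed in 1 of the 4 fits that left out a library, and Telo2 (-0.55 to -0.34) and Grb10 (0.33 to 0.66) in 0 of 4. Under median scaling and under quantile normalization the log2 fold changes shrank and did not pass for Lamtor4 (-0.31 and -0.33), Lamtor2 (-0.26 and -0.35), Telo2 (-0.27 and -0.25), Nprl3 (-0.50 and -0.53) and Tbc1d7 (-0.29 and -0.28), and under median scaling alone for Mapkap1 (-0.28). The limma p-values rest on 2 pups per genotype. Each gene's spread between pups was moderated toward that of the other genes (2 residual and 4.13 prior degrees of freedom in the main fit).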

How the data were processed

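Epidermal total RNA of 4 pups, grouped by the genotype in the labels, was analysed from 1 table per library. The authors deposited FPKM values, which they had scaled for length and sequencing depth. They also deposited TPM values, which the authors scaled to a common sum, and a coverage signal, which the authors gave as mean depth per base. The authors used an institutional RNA-seq workflow on GRCm38. Its aligner and strandedness are not given in the sources used here. Identifiers listed more than once were summed. Coordinates matched GENCODE M21 for 54029 of 54752 genes. Of 21921 protein-coding genes, the 13609 that exceeded 0.5 FPKM in any library entered limma 3.58.1 (R 4.3.3) as log2(FPKM + 1), with a shared fit over both groups (eBayes with a trend, two-sided, Benjamini-Hochberg over all tested genes), after a check on simulated data. Ratios were compared by exact permutation. Without read counts no counting interval can be given, and the number of pups limits the precision. Mitochondrial genes (37) stood at 0 in all tables.

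The 10 genes, the other pathway lists and the markers were chosen with earlier results of these data known. Text names the 10 genes, Skiv2l, the ratio partners and, for Eif4ebp1 and Tsc2, the 2 nearest genes. From each other pathway list it names up to 3 called genes with the largest change. Only genes that did not overlap between the genotypes were eligible for this. Ddit4, Sesn2, Tbc1d7 and Rps6 were named after their values were seen. Alternatives were a pseudocount of 0.1, FPKM above 1 in at least 2 libraries, no filter, TPM, median scaling, quantile normalization, eBayes without a trend, the replicate number as a block, leaving out each library and, added after seeing the data, coverage per aligned gigabase.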

Additional observations from a re-analysis of the deposited data

How the results depend on the processing

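Eif4ebp1 stayed called and positive in all 13 alternatives. Without a filter on low values, 475 genes were higher and 927 lower over 21921 tested, with 0 and 6 of the pathway genes, and Skiv2l (-0.92) no longer passed. Median scaling gave 1894 higher and 1623 lower genes, 10 and 6 pathway genes, 2 higher members of the 10 (Deptor 0.37), a member median of 0.080, and positive values for Mtor (0.088), Mlst8 (0.026), Akt1s1 (0.056), Tsc2 (0.0073), Rheb (0.016), Rps6kb1 (0.071), Eif4ebp2 (0.21) and Eif4e (0.19). Quantile normalization gave 1683 higher and 1917 lower genes, 10 lower pathway genes, 2 higher members (Deptor 0.37), a member median of 0.042, and positive values for Mtor (0.047), Mlst8 (0.0072), Rps6kb1 (0.038), Eif4ebp2 (0.0056), Eif4ebp3 (0.019) and Eif4e (0.067). TPM gave a member median of -0.17 and Rictor at -0.025, and coverage gave -0.036 and Rptor at -0.025. The cause was not tested.

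Leaving out 1 library gave 497 to 1146 higher and 805 to 3135 lower genes, with 0 to 9 and 4 to 15 pathway genes. The lowest counts came without a control library (497 and 805 without the first, 542 and 810 without the second; pathway genes 1 higher without the first and 0 without the second, 4 lower without either), and 9 pathway genes were higher without the first knockout library. The value ranged from -0.097 to 0.19 for Rptor, -0.093 to 0.26 for Tsc1, -1.08 to -0.77 for Skiv2l, -0.20 to 0.25 for Rictor, -0.067 to 0.058 for Eif4ebp2, -0.45 to 0.078 for Eif4ebp3 and -0.13 to 0.094 for Eif4e (0.0024 without the second knockout library). The log2 difference ranged from -0.37 to 0.42 for Rptor to Rictor (-0.021 without the second control library), -0.17 to 0.060 for Rheb to Tsc1 plus Tsc2 and -0.091 to 0.015 (0.014 without the first knockout library) for Akt1s1 to Mtor.

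With the replicate number as a block (replicate block), 1 member was higher, 0 lower, and Eif4ebp1 kept its 1.74 (adjusted p = 4.81e-05), with 1264 higher and 3393 lower genes, so no member call changed. The numbers name different pups, and the deviations of same-numbered libraries correlated at -0.077, so the samples were not treated as pairs.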
